A study of Homo sapiens with 4 samples.

Results

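Open chromatin was measured at 35 interferon response genes by ATAC-seq, in which a transposase cuts accessible DNA and the fragments are sequenced. The cells were MCF10A, a spontaneously immortalized line from human breast epithelium that does not form tumours. There were 2 groups with 2 libraries each, A and B: shG8d cells carried a short hairpin against SNHG8d, a form of the long non-coding RNA gene SNHG8, and shNC cells carried a control hairpin. Neither an interferon treatment nor a time point is named. The genes were taken from a list of interferon-induced effectors and regulators, and every region that the table assigns to them by symbol was used, at promoters and farther away. Regions were found for 24 of the 35 genes, 47 regions among 58127 in the table, which names 19485 genes. A promoter region, annotated as such or within 1000 bp of a transcription start site (TSS), was present at 18 genes. Another 6 (IFI44, IFIT2, IFITM3, MX2, OAS1 and OASL) had distal regions only, and 11 (BST2, CXCL10, DTX3L, IFI27, IFI44L, IFITM1, IFITM2, OAS2, RSAD2, TRIM22 and XAF1) had none.

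Cells sense viral nucleic acid with cytosolic helicases such as RIG-I, the product of DDX58, and MDA5, the product of IFIH1, and then secrete interferon. Type I interferon binds the receptor IFNAR1 and IFNAR2, whose kinases JAK1 and TYK2 phosphorylate STAT2. STAT2 and IRF9 are subunits of the complex ISGF3, which binds the interferon-stimulated response element (ISRE) in the promoters of antiviral genes. IRF1, in contrast, is induced mainly by interferon gamma through a gamma-activated site (GAS). In epithelial cells many of these genes are transcribed at a low level without added interferon.

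The group labels are exchanged between portions of the table, and no direction can therefore be assigned to the knockdown. Each deposited value is a whole number of reads times a step that belongs to 1 library, and the same 4 steps recur in all region sets, at 0.842, 0.807, 1.21 and 1.17 normalized counts per read. The pair with the smaller steps, called the deeper pair here, is labelled shG8d in the 33913 common regions but shNC in the 21459 shNC-specific and the 2755 shG8d-specific regions. The shallower pair carries the opposite label each time. By their names, the specific sets hold regions found in 1 group only, and how they were chosen is not given. If these same libraries set the choice, the direction and p-values of regions in the specific sets are not independent of it. All differences below are the deeper minus the shallower pair of libraries. Reads in regions numbered 8124488 and 8111839 for the deeper libraries and 4457248 and 4344212 for the others, so values of the deeper pair are the more precise. A count of 3 reads, the most that a count of 0 allows, is worth 2.42 to 3.62 normalized counts. This and the other reads quoted cover counting error only. Of the markers of basal-like mammary epithelium, 11 of 12 had a promoter region, TP63 being the exception, against 1 of 8 leukocyte markers (CD14), 1 of 6 fibroblast markers (PDGFRA) and 0 of 4 endothelial markers. Fewer cells with an open region and less opening per cell cannot be told apart in such bulk libraries. The test throughout was limma's two-sided moderated test on log2(normalized count + 1), with Benjamini-Hochberg adjustment over all 58127 regions and a threshold of 0.05. With 2 libraries a pair, and no label that names separate cultures, the p-values reflect the spread between these libraries alone, and that spread may be technical.

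Promoter sequences of the genes that gave a difference close to their start site are shown first, because some hold a match to the motifs searched and some hold none. Only exact matches were searched, so a sequence without a match may still hold a response element of other letters or spacing. Each is the 250 bases before an annotated TSS in RefSeq (GRCh38.p14), 5′ to 3′ on the strand of the gene, and capitals mark ISRE cores (GAAA, any 2 bases, then GAAA, which reads TTTC, any 2 bases, TTTC on the other strand) and GAS motifs (TTCNNNGAA, the same on both strands). The regions of the table are on hg19, so the windows were matched to them by gene and not by position. IRF1 (chr5:132490774-132491023, minus strand) holds a GAS motif and no ISRE core, and so does IRF9 (chr14:24161015-24161264, plus strand). STAT2 (chr12:56360108-56360357, minus strand) and DDX58 (chr9:32526197-32526446, minus strand), which RefSeq lists under its current symbol RIGI, hold neither. ISG20 (chr15:88638766-88639015, plus strand) holds 1 ISRE core. IFIT3 holds 2 in each of its windows, the first at chr10:89327747-89327996, plus strand, and the second at chr10:89332279-89332528, plus strand.
IRF1: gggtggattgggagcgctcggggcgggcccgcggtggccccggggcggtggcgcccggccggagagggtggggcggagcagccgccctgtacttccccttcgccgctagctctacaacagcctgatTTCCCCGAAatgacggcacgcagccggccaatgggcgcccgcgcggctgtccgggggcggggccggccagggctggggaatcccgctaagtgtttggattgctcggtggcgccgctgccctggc
IRF9: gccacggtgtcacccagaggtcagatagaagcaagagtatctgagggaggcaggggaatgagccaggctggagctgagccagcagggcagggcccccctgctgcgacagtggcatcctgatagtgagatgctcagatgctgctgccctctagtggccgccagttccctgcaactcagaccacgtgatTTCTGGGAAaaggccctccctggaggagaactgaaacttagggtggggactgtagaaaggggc
STAT2: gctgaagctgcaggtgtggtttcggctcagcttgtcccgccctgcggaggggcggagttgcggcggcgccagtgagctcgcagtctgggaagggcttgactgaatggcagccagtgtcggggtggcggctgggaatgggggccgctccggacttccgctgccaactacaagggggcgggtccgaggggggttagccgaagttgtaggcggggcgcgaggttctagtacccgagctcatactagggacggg
DDX58: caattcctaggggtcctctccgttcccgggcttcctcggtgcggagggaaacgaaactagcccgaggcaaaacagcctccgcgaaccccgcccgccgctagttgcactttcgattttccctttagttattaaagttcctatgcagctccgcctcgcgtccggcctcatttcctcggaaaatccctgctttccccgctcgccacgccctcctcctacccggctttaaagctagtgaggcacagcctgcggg
ISG20: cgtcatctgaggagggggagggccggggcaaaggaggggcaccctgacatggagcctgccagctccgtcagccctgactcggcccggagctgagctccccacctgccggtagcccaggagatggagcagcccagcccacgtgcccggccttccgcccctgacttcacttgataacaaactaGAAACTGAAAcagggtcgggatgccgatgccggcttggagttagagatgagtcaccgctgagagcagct
IFIT3 first window: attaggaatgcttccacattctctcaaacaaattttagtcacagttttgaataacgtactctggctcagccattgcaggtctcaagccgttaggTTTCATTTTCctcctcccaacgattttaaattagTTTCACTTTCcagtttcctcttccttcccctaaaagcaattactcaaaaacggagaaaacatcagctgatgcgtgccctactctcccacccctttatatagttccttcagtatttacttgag
IFIT3 second window: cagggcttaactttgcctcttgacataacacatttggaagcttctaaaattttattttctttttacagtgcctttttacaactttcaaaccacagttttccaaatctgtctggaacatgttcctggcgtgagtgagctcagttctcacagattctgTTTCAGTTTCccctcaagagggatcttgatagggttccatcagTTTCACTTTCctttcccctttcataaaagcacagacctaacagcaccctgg

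Over windows of 300 bases (250 before to 50 after each start), 26 of the 35 genes were matched in the RefSeq table. An ISRE core was found on either strand in at least 1 window of 19 of these 26 (73.1%), against 4.38% of 27305 genes in the table. A GAS motif, searched on the same windows, occurred in 8 of 26 (30.8%), against 9.38% of all genes. Both motifs occurred in 4 genes and neither in 3. Genes with and without a promoter region carried the core: it was present in 10 of 15 matched genes with a promoter region, 2 of 3 with distal regions only and 7 of 8 with no region. The elements below give 30 bases around a core, in capitals, from 4 genes with a promoter region and 4 genes with no region. In ISG15 and BST2 a further core overlaps the marked one, and its remaining bases are in lower case. ISG15 (chr1:1013374-1013403, plus strand), IFIT1 (chr10:89392497-89392526, plus strand), OAS3 (chr12:112938321-112938350, plus strand) and PARP9 (chr3:122564322-122564351, minus strand) had a promoter region. CXCL10 (chr4:76023699-76023728, minus strand), IFI44L (chr1:78620274-78620303, plus strand), IFITM1 (chr11:313990-314019, plus strand) and BST2 (chr19:17405741-17405770, minus strand) had none. The PARP9 core also lies in the window of its neighbour DTX3L, with which PARP9 shares 137 bases. DTX3L is counted here with no region because each region is assigned to 1 symbol, and the PARP9 region may cover its start.
ISG15: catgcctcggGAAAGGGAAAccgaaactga
IFIT1: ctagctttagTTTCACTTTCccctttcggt
OAS3: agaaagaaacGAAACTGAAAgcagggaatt
PARP9: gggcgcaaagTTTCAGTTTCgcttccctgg
CXCL10: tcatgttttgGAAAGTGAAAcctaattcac
IFI44L: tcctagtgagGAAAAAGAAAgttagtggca
IFITM1: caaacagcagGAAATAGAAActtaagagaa
BST2: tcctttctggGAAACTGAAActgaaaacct

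Across the group, differences between the pairs were about as frequent as in the table as a whole. Of the 29 common regions, 4 (13.8%) were higher in the deeper pair and 2 (6.90%) were lower, where 10.7% and 15.0% of all common regions were called in those directions. Of the 17 shNC-specific regions, 2 (11.8%) were higher against a background of 13.2%. None was lower by limma, by limma voom on the recovered reads or at an unadjusted p under 0.05, with 0.979% of all such regions called lower. The single shG8d-specific region was lower, as were 70.0% of that set. With 1 promoter region per gene, 4 of 18 (22.2%) were higher and 2 (11.1%) lower, beside 20.3% and 10.7% of 11487 genes. The 9 regions called are also those of the group with an unadjusted p under 0.05 in the authors' deposited table, 19.1% of the 47 against 24.2% of all regions. Both deeper libraries lay above, or both below, the shallower pair in 24 of 47 regions (51.1%), against 63.4% of the table. Median log2 differences were -0.00037 in common regions (all common regions -0.12), 0.45 in shNC-specific regions (all 0.24) and 0.30 at 1 promoter per gene (all 0.14). Scaling libraries to equal totals in place of the authors' scaling moved the median of all regions by -0.35 and turned the 6 higher and 3 lower calls of the group into 2 higher and 8 lower. Only ISG20 at +120 bp, IRF7 at +9287 bp and IFIT3 at +379 bp were called under each of the 10 alternatives run.

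**Figure D1:**
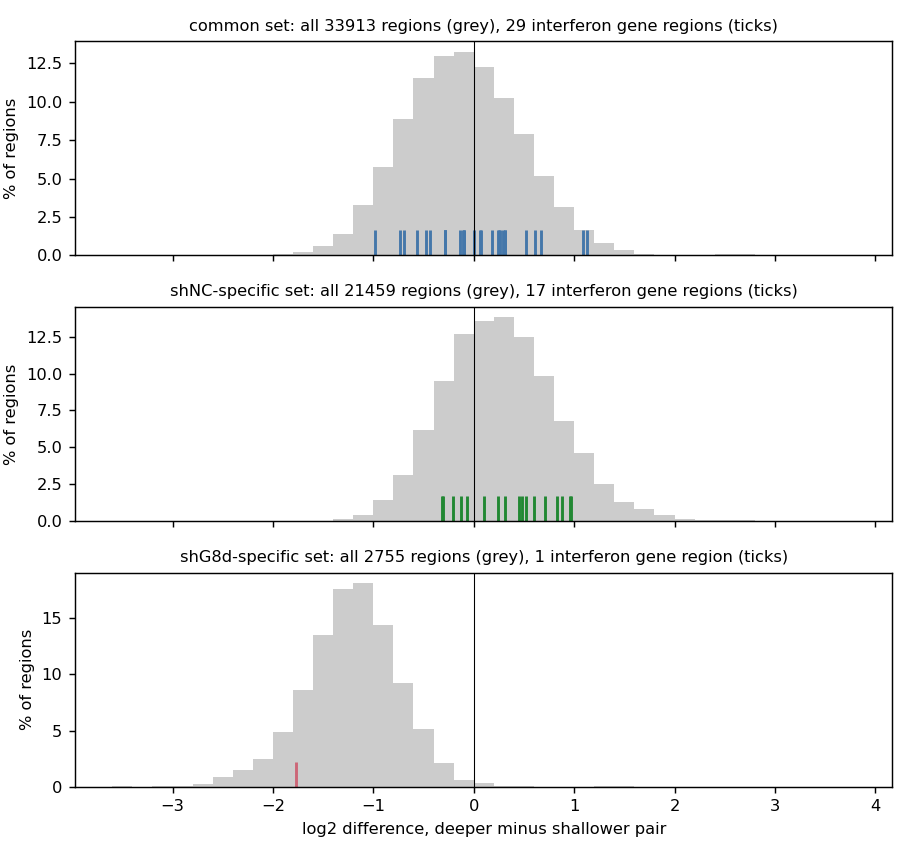
Share of regions (y axis, percent) by log2 difference between the deeper and the shallower pair (x axis), with all regions of each set in grey and the interferon gene regions as ticks. The 29 common, 17 shNC-specific and 1 shG8d-specific regions lie within the spread of their sets.

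Among the transcription factors of the pathway, 4 of 17 regions (23.5%) were called, a share like the 23.6% of the whole table. All 4 were higher in the deeper pair, as were 11.1% of the table, and each lay at a different gene: IRF7, STAT2, IRF1 and IRF9. Those of IRF7, STAT2 and IRF1 are common regions, of which 10.7% were higher and 15.0% lower. That of IRF9 is shNC-specific, a set with 13.2% higher and 0.979% lower, so its direction adds little. IRF7, the factor that amplifies interferon alpha production, had a common region 9287 bp downstream of its TSS on chromosome 11, which the table places in an intron of the neighbouring gene PHRF1. It measured 157 and 142 normalized counts in the deeper libraries and 66.4 and 73.8 in the shallower ones. The pairs did not overlap, and the log2 difference was 1.08 (SE 0.210, limma adjusted p = 0.00158). The promoter region of IRF7, at +100 bp, measured 130.4 and 167 against 132 and 107. Its pairs overlapped, with a log2 difference of 0.31 (adjusted p = 0.281), so the IRF7 call lay outside its own promoter. The other IRF7 region, shNC-specific and at +2009 bp, differed by 0.45 (adjusted p = 0.210).

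STAT2, the ISGF3 subunit that carries its transactivation domain, had 1 region, a common one 119 bp upstream of the TSS on chromosome 12. It measured 208 and 235 normalized counts in the deeper libraries against 145 and 132 in the others, with no overlap. The log2 difference was 0.67 (SE 0.181, limma adjusted p = 0.0127). IRF9, the DNA-binding subunit of the same complex, had 1 shNC-specific region at +12 bp on chromosome 14, with 47.1 and 54.9 against 26.6 and 24.6. Both deeper libraries were above both shallower ones, by 0.96 in log2 (SE 0.319, adjusted p = 0.0347). In the shNC-specific set 2842 regions were called higher and 210 lower. The direction at IRF9 is therefore that of most calls in its set, and its p-value may not be independent of how the set was chosen. Neither promoter shown above holds an ISRE core. With a deeper library left out the differences stayed about as large, but neither passed. STAT2 gave 0.76 without deeper library A and 0.58 without B, and IRF9 gave 1.07 and 0.86. Without shallower library A or B, STAT2 gave 0.73 or 0.60 and IRF9 gave 1.02 or 0.91, and both kept their call. Why these fits differ was not tested. In a separate fit of its region set the adjusted p of IRF9 was 0.0846.

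IRF1, a factor that drives interferon gamma targets and antigen presentation, had 9 regions on chromosome 5, the most of any gene in the group. The promoter region at -172 bp measured 326 and 295 normalized counts in the deeper libraries against 215 and 192 in the others. The pairs stood apart by 0.61 in log2 (SE 0.169, limma adjusted p = 0.0147). The other 8 regions of IRF1 ranged from -0.31 to 0.52 and none passed, with adjusted p between 0.394 and 0.999. With 1 deeper library left out the promoter difference was of like size but did not pass, at 0.54 without A and 0.68 without B. It kept its call with shallower library A (0.69) or B (0.53) left out. IRF2, which competes with IRF1 for its sites, had 3 regions and none past the threshold. Its promoter region at -140 bp on chromosome 4 measured 108 and 76.7 against 60.4 and 90.2, so the pairs overlapped (0.30, adjusted p = 0.424). An shNC-specific region of IRF2 at +1457 bp measured 60.6 and 45.2 against 23.0 and 34.0, a log2 difference of 0.88 with an adjusted p of 0.0574.

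At equal library totals the STAT2, IRF1 and IRF9 promoter differences became 0.32, 0.25 and 0.62, with adjusted p of 0.207, 0.274 and 0.150. They kept their sign but not their call.

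Of the 5 regions of the RNA sensors, 2 were called, both lower in the deeper pair and both at DDX58, in the common set, where 15.0% of all regions were lower. This gene encodes RIG-I, which recognises RNA with a 5′ triphosphate, and had 3 regions on chromosome 9. The promoter region at -111 bp measured 112 and 155 normalized counts against 192 and 238 in the shallower libraries. The intronic region at +1032 bp, 1143 bp away by distance to the TSS, measured 70.7 and 114 against 153 and 206. In both regions the pairs did not overlap. The log2 differences were -0.69 (SE 0.201, limma adjusted p = 0.0178) and -0.98 (SE 0.232, adjusted p = 0.00590). Neighbouring regions of 1 gene share their libraries and are no replicates of each other. The third, at +23610 bp, was level at 102 and 106 against 104 and 94.9 (0.06, adjusted p = 0.857). Deeper library B was above deeper library A in all 3, and without A the first 2 differences were -0.46 and -0.64 with adjusted p of 0.321 and 0.165. IFIH1, which encodes the long RNA sensor MDA5, had 2 regions and no call. Its region at +176 bp on chromosome 2, annotated as promoter of the neighbour GCA, measured 58.1 and 97.6 against 95.4 and 89.0 (-0.29, adjusted p = 0.435), and the other, at +25247 bp, differed by -0.30 (adjusted p = 0.568).

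**Figure D2:**
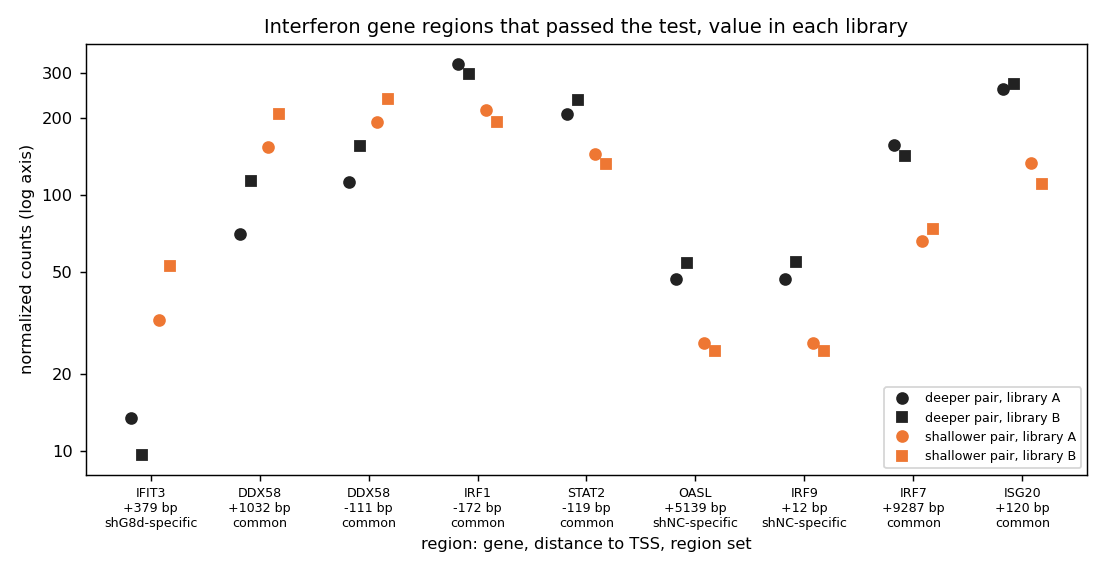
Normalized counts (y axis, log scale) in each of the 4 libraries at the 9 interferon gene regions that passed the test (x axis). The deeper libraries are above the shallower ones in the 6 regions of ISG20, IRF7, IRF9, OASL, STAT2 and IRF1, and below them in both DDX58 regions and the IFIT3 region.

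The antiviral effectors held the largest differences in each direction. ISG20, an exonuclease that degrades single-stranded RNA, had 6 regions on chromosome 15. The common region at +120 bp, annotated as 5′ UTR, measured 260.0 and 272 normalized counts in the deeper libraries against 133 and 110.1 in the others. It was 2.19-fold higher in the deeper pair (log2 1.13, SE 0.182, limma adjusted p = 0.000383) and passed under each alternative run with adjusted p no higher than 0.00809. A neighbouring region at +705 bp, 585 bp away by distance to the TSS, had the other sign, with 89.2 and 83.1 against 115 and 119.5 (-0.44, adjusted p = 0.134). It did not pass, but did at equal library totals. The other 4 ISG20 regions lay between -0.14 and 0.83 and did not pass either. Of the adjoining regions near the ISG20 start, the one at +120 bp alone passed.

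IFIT3 belongs to the tetratricopeptide proteins that bind viral RNA and block its translation. Its region at +379 bp on chromosome 10, in an intron and the only shG8d-specific one of the group, measured 13.5 and 9.68 normalized counts in the deeper pair, from 16 and 12 reads. The shallower libraries measured 32.6 and 52.7, from 27 and 45 reads. The deeper pair was 3.42-fold lower (log2 -1.77, SE 0.407, limma adjusted p = 0.00482). Low counts limit its precision. In the shG8d-specific set 2738 of 2755 regions had a negative log2 difference. The direction at IFIT3 is therefore that of its set, and its p-value may not be independent of how the set was chosen. The remaining IFIT3 regions, at +5248 bp and +19865 bp, differed by 0.10 and -0.28 and were not called.

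The other IFIT genes, on the same chromosome, did not pass under the authors' scaling. IFIT1, with 1 region at +13 bp, measured 26.1 and 29.1 against 26.6 and 14.1 (0.49, adjusted p = 0.408). IFIT5, with 1 region at +261 bp, measured 37.9 and 34.7 against 56.8 and 51.6, where the pairs stood apart (-0.56, adjusted p = 0.168). At equal library totals the IFIT5 region was called lower (-0.91, limma adjusted p = 0.0227). IFIT2, with 1 region 23587 bp upstream, differed by 0.26 (adjusted p = 0.533). Under the authors' scaling the IFIT3 call was thus not shared by its neighbours, although no test compared them. The called IFIT3 region is shG8d-specific, while that of IFIT1 is shNC-specific and those of IFIT2 and IFIT5 are common. Gene and region set cannot be told apart in this contrast.

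The OAS enzymes make the short adenylate chains that activate RNase L, while OASL lacks this activity and binds RIG-I. OASL had 1 region, an shNC-specific intronic one at +5139 bp on chromosome 12, with 47.1 and 54.1 normalized counts against 26.6 and 24.6. These values nearly equal those of the IRF9 region on chromosome 14, which is a separate entry of the table. The limit given for IRF9, on direction and p-value in the shNC-specific set, holds for OASL too. The pairs did not overlap, and the log2 difference was 0.95 (SE 0.319, limma adjusted p = 0.0364). Its size held without deeper library A (1.05) or B (0.86), though neither fit passed. The difference kept its call without shallower library A (1.01) or B (0.90). At equal library totals it was 0.61 (adjusted p = 0.158), and a separate fit of its region set gave an adjusted p of 0.0878. The OAS3 promoter region at +52 bp measured 49.7 and 37.1 against 41.1 and 31.6, which overlap (0.25, adjusted p = 0.612). An upstream OAS3 region at -1384 bp measured 52.2 and 38.7 against 60.4 and 65.6 (-0.48, adjusted p = 0.223). OAS1, with 1 exonic region at +9749 bp, differed by 0.18 (adjusted p = 0.614), and OAS2 had no region.

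**Figure D3:**
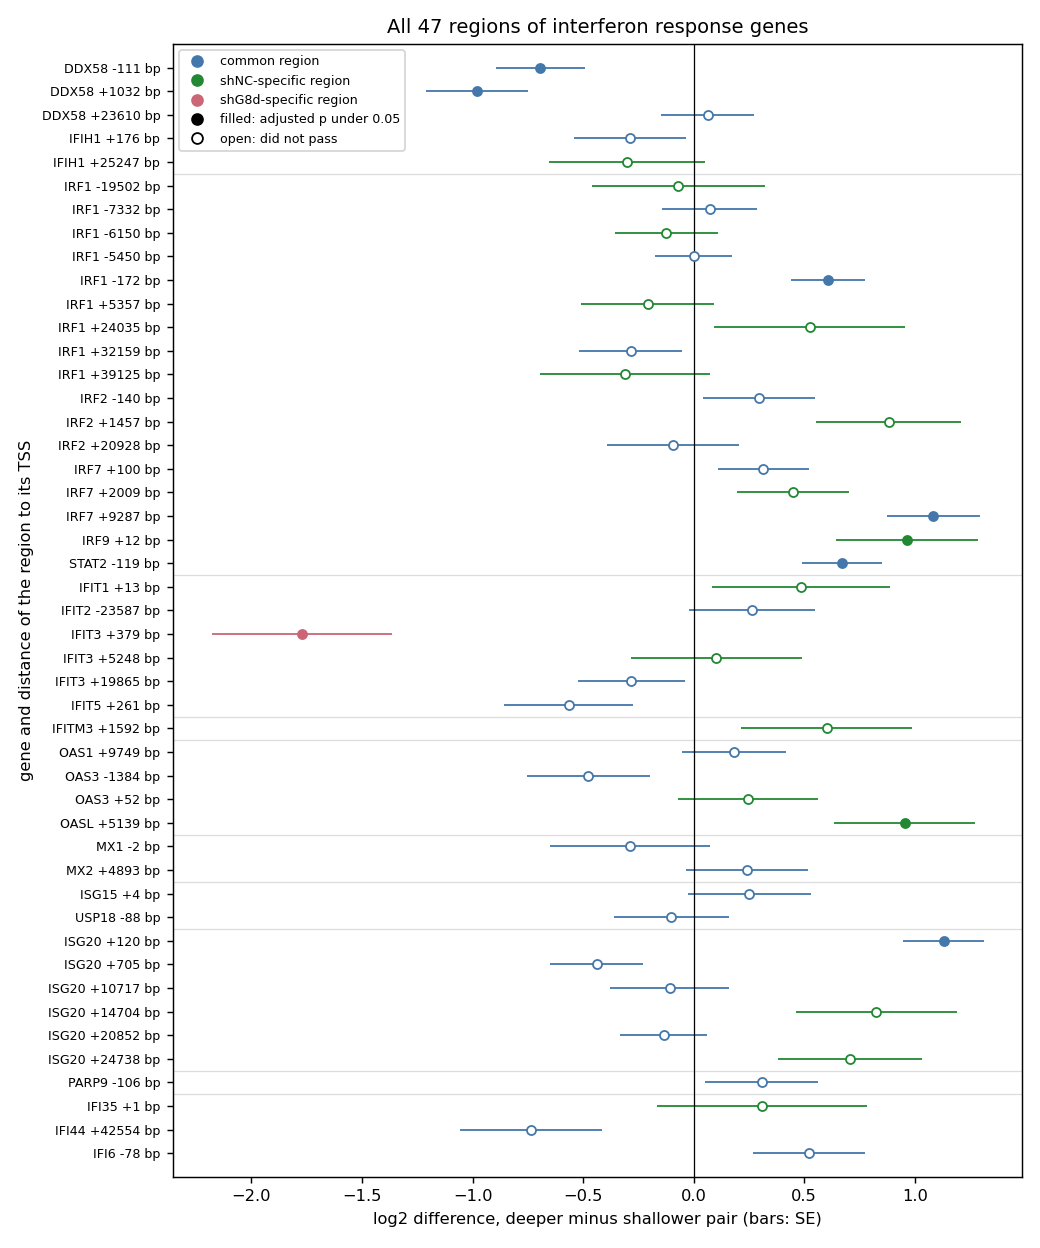
Log2 difference between the deeper and the shallower pair (x axis, bars are SE) for each of the 47 regions, labelled by gene and distance to the TSS (y axis), with filled points at an adjusted p under 0.05. Regions of 1 gene lie on both sides of 0 for DDX58, IFIT3, IRF1, IRF2, ISG20 and OAS3.

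The remaining effectors had 1 region each and no difference past the threshold. MX1, a GTPase that traps viral nucleocapsids, measured 21.9 and 36.3 normalized counts at -2 bp against 41.1 and 29.3 (-0.29, adjusted p = 0.600). MX2, its nuclear relative, had 1 distal region with 0.24 (adjusted p = 0.558). ISG15, the ubiquitin-like modifier, measured 53.9 and 54.1 at +4 bp against 43.5 and 46.9 (0.25, adjusted p = 0.543). USP18, the protease that removes ISG15 and dampens receptor signalling, measured 53.9 and 64.6 at -88 bp against 58.0 and 69.1 (-0.10, adjusted p = 0.811). These 4 genes are classical interferon targets, and their 4 regions, 1 per gene, differed by -0.29 to 0.25 in log2.

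IFI6, a mitochondrial survival protein, measured 90.9 and 69.4 at -78 bp against 50.7 and 59.8 (0.52, adjusted p = 0.145). PARP9, the partner of the ubiquitin ligase DTX3L, measured 75.7 and 72.6 at -106 bp against 50.7 and 70.3 (0.31, adjusted p = 0.406). In both genes the deeper pair lay above the shallower one. The spread was widest at IFI35, with 32.0 and 27.4 at +1 bp against 47.1 and 11.7 (0.31, adjusted p = 0.676). IFI35 gave 1.27 without shallower library A (adjusted p = 0.0150) and -0.65 without shallower library B (adjusted p = 0.207), so its sign depends on which of them is kept. IFITM3, a membrane protein that blocks virus entry, had 1 region at +1592 bp with 29.5 and 25.8 against 18.1 and 17.6 (0.60, adjusted p = 0.273). IFI44 had 1 region, 42554 bp downstream of its TSS, at 27.8 and 27.4 against 42.3 and 51.6 (-0.74, adjusted p = 0.101).

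Genes with no promoter region had fewer CpG dinucleotides near their start. The median count of CpG per window of 300 bases was 16 over the 15 matched genes with a promoter region, 1 over the 3 with distal regions only and 4 over the 8 with no region. All genes showed the same order, with 25 CpG in genes with a promoter region and 6 in genes with no region. They were matched by identical symbol only, and the interferon genes through synonyms too. Genes renamed since may thus be counted among those with no region. IFI44L, an antiviral gene with no region, held 0 CpG in its window, BST2, which tethers budding virions, held 2, and the chemokine CXCL10 held 3. RSAD2, which encodes the antiviral enzyme viperin, was an exception, with 45 CpG in 1 of its windows and 4 in the other. DTX3L held 20 in a window partly shared with PARP9. Each region is assigned to 1 symbol, and the promoter region of PARP9 may lie at the DTX3L start too. The place of DTX3L among genes with no region therefore rests on that assignment. The values describe reference sequence, not a methylation measurement, and lack of a called region does not show that chromatin was closed.

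**Figure D4:**
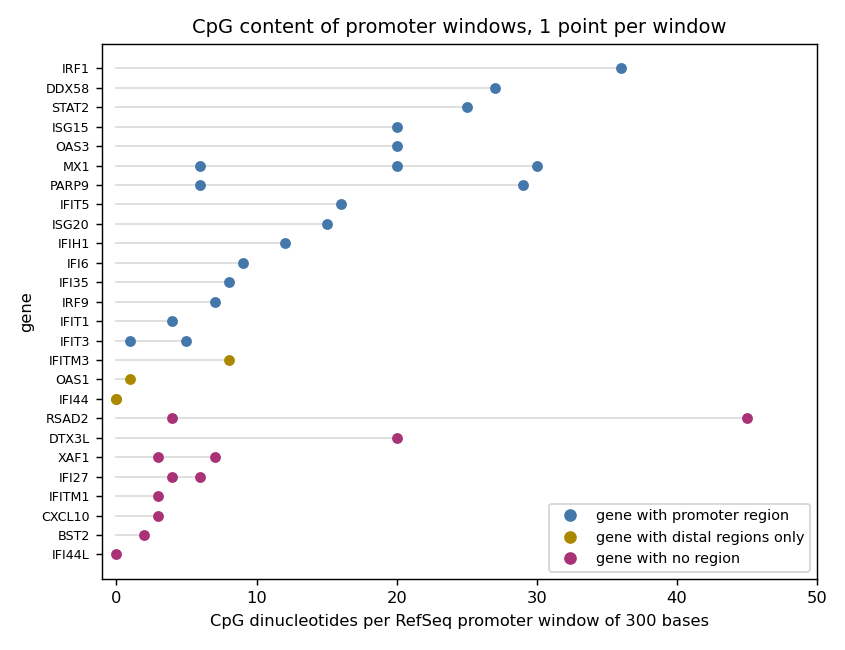
CpG dinucleotides per RefSeq promoter window of 300 bases (x axis) for each matched interferon response gene (y axis), 1 point per window, coloured by whether the gene had a promoter region, distal regions only or no region. Windows of genes without a promoter region mostly lie at the low end, with RSAD2 (45) and DTX3L (20) apart.

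Other genes of the pathway, from lists of 115 genes outside the group, were examined at 1 promoter region each, and 75 had one. In the deeper pair 11 of them (14.7%) were higher and 12 (16%) were lower, beside the 20.3% and 10.7% of all genes given above, and their median log2 difference was 0.03. No promoter region was found at any of the 10 interferon ligand genes. Of the receptors and kinases 8 of 10 had one, with 1 higher and 1 lower. TYK2, the kinase bound to IFNAR1, measured 169 and 172 normalized counts against 105 and 73.8 and was higher by 0.94 in log2 (SE 0.212, limma adjusted p = 0.00412). IFNAR2, the high-affinity receptor subunit, measured 42.1 and 42.0 against 91.8 and 73.8 and was lower (-0.95, adjusted p = 0.0136). Leaving out deeper library A or B left IFNAR2 at -0.96 or -0.95, with an adjusted p of 0.0795 or 0.0702. IFNAR1 (-0.51, adjusted p = 0.0653) and JAK1 (0.48, adjusted p = 0.228) did not pass, nor did the factor IRF3 (-0.46, adjusted p = 0.157). The steps of the pathway thus did not share a sign.

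Negative regulators had promoter regions at 9 of 9 genes, with 3 higher (33.3%) and 1 lower (11.1%), beside 20.3% and 10.7% of all promoters. PTPN1, a phosphatase that acts on JAK2 and TYK2, measured 308 and 332 normalized counts against 161 and 108 (1.27, limma adjusted p = 0.000257). PTPN6, the phosphatase SHP-1, was higher by 1.07 and USP25 by 1.25. SOCS1, an inhibitor of JAK kinases, was lower (-0.57, adjusted p = 0.0470), and kept its sign without passing when deeper library A (-0.52, adjusted p = 0.293), deeper library B (-0.63, adjusted p = 0.170) or shallower library B (-0.44, adjusted p = 0.141) was left out. Sensing and adaptor genes had 2 higher of 12 (RNF135 and TICAM1, 16.7%), and the remaining 10 did not pass. Antigen presentation genes had 2 higher (PSMB8 and HLA-C) and 2 lower of 13, or 15.4% each way. No list was tested against all promoters. Both lower ones encode the peptidases that trim antigenic peptides in the endoplasmic reticulum, ERAP1 (-0.70, adjusted p = 0.0116) and ERAP2. ERAP2 measured 5.05 and 7.26 against 45.9 and 52.7, from 6, 9, 38 and 45 reads. Its log2 difference of -2.83 (SE 0.425, adjusted p = 0.000216) was the lowest of the 11487 promoter regions taken as 1 per gene. Over all 13020 promoter regions the lowest was -3.43. The ERAP2 region is shG8d-specific, a set where 182 of 271 promoters, 1 per gene, were lower and 0 higher.

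Of 33 other interferon-stimulated genes with a promoter region, 3 were higher (SP110, PML and CD274) and 8 lower, with a median of -0.22. These are 9.09% and 24.2%, beside 20.3% and 10.7% of all promoters. The lower ones included the guanylate-binding GTPases GBP2, at 26.9 and 21.0 normalized counts against 80.9 and 56.2, and GBP3, at 11.8 and 21.0 against 61.6 and 64.4. Their log2 differences were -1.47 and -1.93 (limma adjusted p = 0.00341 and 0.00113). The deeper pair was below the shallower one at both. TNFSF10, NMI, HELZ2, SLFN5, ZC3HAV1 and TRIM14 were lower by smaller amounts, from -0.56 to -1.26. Of these 8 lower promoters GBP3, TNFSF10, NMI and HELZ2 lie in the shG8d-specific set, where 182 of 271 promoters of all genes were lower. Of the 23 calls in these lists, 7 (ERAP2, GBP2, GBP3, PTPN1, PTPN6, TYK2 and USP25) passed under each alternative in which they were tested, while 15 were lost without deeper library A and 11 without B.

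**Figure D5:**
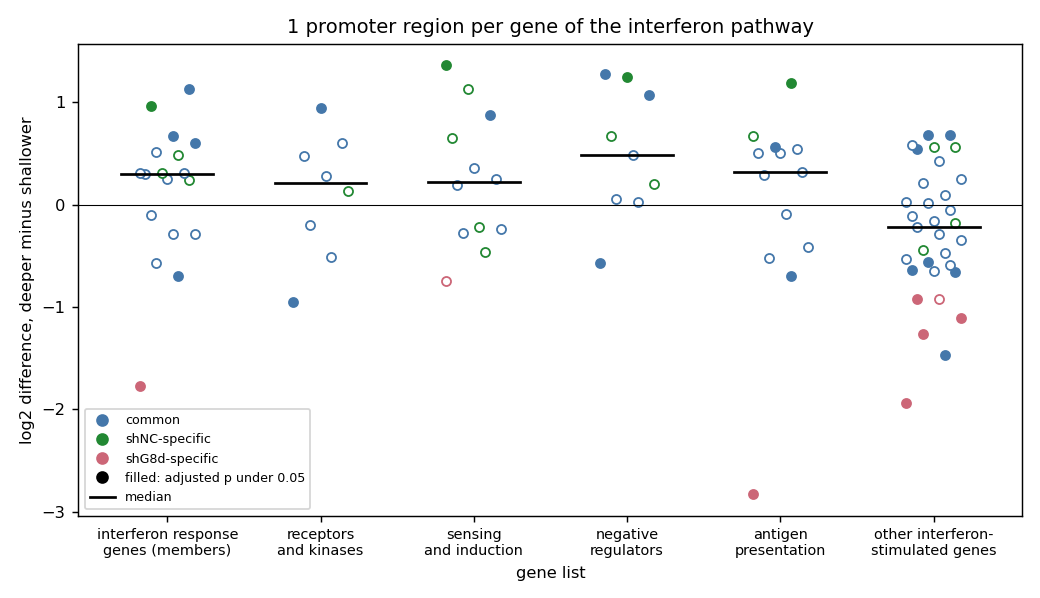
Log2 difference at 1 promoter region per gene (y axis) for the interferon response genes and the lists of other pathway genes (x axis), coloured by region set, with filled points at an adjusted p under 0.05 and a line at the median. Each list with regions holds genes on both sides of 0, with ERAP2 (-2.83) lowest.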

How the data were processed

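ATAC-seq libraries of MCF10A cells, 2 shG8d and 2 shNC, were analysed from the authors' deposited table of 58127 regions. CASAVA 1.4 and build hg19 are named in the submitters' processing notes. An aligner, a peak caller and a counter were not given in the sources used here. Per the file headers, the authors gave each library a log10 normalized count, a log2 fold change and an unadjusted p-value per region. Raising 10 to the deposited log10 values gave whole multiples of 1 step per column (100% within 0.05 reads), which identified libraries across sets and recovered reads.

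Normalized counts were tested as log2(value + 1) with limma 3.58.1 in R 4.3.3 (trended prior), after a filter of 10 normalized counts in at least 2 libraries, which removed 0 regions. The step was tested on simulated data. A count model had been planned for raw counts, but the deposited unit was log10, so limma was the test. Region starts and ends were not used, so levels were not compared between regions. Regions with an adjusted p under 0.05 and 1 promoter region per gene (the highest mean) are named. Members and lists were chosen with earlier results of these data known. Alternatives are in the closing section. The value of 1 pathway gene is not reported here.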

Additional observations from a re-analysis of the deposited data

How the results depend on the processing

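With libraries scaled to equal totals, common regions gave 2 higher and 7 lower calls, shNC-specific regions 0 higher, promoters 1 higher, and other pathway promoters 6 higher and 24 lower. In the whole table the same scaling gave 2580 higher and 16343 lower in place of 6477 and 7220, and calls that were higher made up 9.87% in place of 41.7% among common regions and 47.4% in place of 93.1% among shNC-specific ones. A separate fit per region set left 0 shNC-specific regions higher. Leaving out 1 library at a time gave 2 to 4 common regions higher and 0 to 2 lower, 0 to 4 shNC-specific regions higher, 1 to 5 promoters higher and 1 to 2 lower, and 5 to 21 other pathway promoters higher and 3 to 13 lower. The fewest all-region calls (2044 higher and 2585 lower) came without deeper library A. The cause was not tested. Among single regions, equal totals ended 4 calls (OASL, IRF9, IRF1, STAT2) and made 5 new ones, leaving out deeper A ended 6 and deeper B 4. The 5 regions newly called at equal totals were all lower and all common. They were ISG20 at +705 bp, IFI44 at +42554 bp, IFIT5 at +261 bp, OAS3 at -1384 bp and IRF1 at +32159 bp. IFI44 also passed in a separate fit of its region set (limma adjusted p = 0.0470). No called region changed sign under the alternatives run. Differences of A minus B did not correlate between the pairs over regions (-0.0039), which cannot show whether libraries of 1 letter were made together. A replicate block on the letters gave 4 higher and 2 lower common regions, 3 higher shNC-specific regions and 1 lower shG8d-specific region. The block also gave 4 higher and 2 lower promoters, 14 higher and 14 lower pathway promoters, and 7348 higher and 7960 lower regions in all. Its added member region was IRF2 at +1457 bp (adjusted p = 0.0398). A pseudocount of 5 and limma voom on recovered reads, the latter chosen after seeing the data, changed none of the 47 regions, and a filter of 30 normalized counts left 5 untested. A negative binomial test had been planned for deposited raw counts, and it was not run on the recovered reads. Depth limits regions of few reads such as that of IFIT3.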
